A study of Rattus norvegicus with 4 samples.

Results

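Interleukins are secreted proteins by which immune cells, glia and neurons signal to each other, and their receptors are built from a ligand-binding chain and one or more shared chains. The interleukin genes of rat brains after an intracerebral hemorrhage (a bleed within the brain) are described here together with their receptors, soluble antagonists and accessory chains. Members were all genes of the deposited table whose symbol begins with Il and a digit, which gave 68 of 17853 genes, all of them protein coding. By role they were 26 ligands, 35 receptor chains, 6 antagonists or decoys and 1 enzyme that carries an interleukin name.

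The series sequenced polyadenylated RNA of brain tissue from the bleeding (ipsilateral) side and from the opposite (contralateral) side. The 4 groups were 21 months ipsilateral, 21 months contralateral, 13 months ipsilateral and 13 months contralateral, with 1 library each. The submitters call rats of 21 months old and rats of 13 months adult. All 4 groups carried the hemorrhage, so the contralateral side is not tissue of an uninjured animal. The labels describe RNA pooled from 9 rat brains, a number that may be per library or for all 4 together, and give no strain, hemorrhage model or time after the bleeding. Pooling and 1 library per group mean that no single level below has a replicate error.

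Levels are RPKM, read numbers scaled to gene length and to library size, as made by the authors. The gene lengths used are not settled, so comparisons between genes are less certain than those of 1 gene between libraries. The RPKM sums of the libraries lay between 388632 and 402100, and 11814 to 12265 genes reached 1 RPKM. The read depth is unknown, and values near 0 are the least certain. In tissue RNA, fewer cells of a type and less RNA per cell cannot be told apart. The labelled tissue carried its defining markers: all 8 neuronal, all 8 astrocyte and all 8 oligodendrocyte markers were tested, and summed to 1254, 758 and 2723 RPKM in the 21 month ipsilateral library.

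Interleukin 1 is the founding member of a family of inflammatory ligands that act through receptors with an intracellular domain shared with Toll-like receptors, and a receptor antagonist and decoy receptors hold it in check. Interleukin 6 and interleukin 11 signal through the shared chain gp130, interleukin 10 dampens activation of macrophages, and interleukin 4 and interleukin 13 drive an alternative activation state through the interleukin 4 receptor. In the injured brain, microglia and invading blood leukocytes are the known main source of interleukin 1 beta, while astrocytes and oligodendrocytes are known to hold interleukin 33 in their nuclei.

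Summed over the 68 genes, the interleukin system was at 206 RPKM in the 21 month ipsilateral library and 96.8 RPKM in the contralateral one, and at 257 RPKM and 101 RPKM at 13 months. The 16 genes of the interleukin 1 family made up most of the difference between the sides, with 92.5 RPKM ipsilaterally against 29.5 RPKM contralaterally at 21 months and 129.65 RPKM against 31.7 RPKM at 13 months. The 16 genes of the short-chain families include Il2, Il7, Il4r and Il7r, while Il3, Il4, Il5, Il13 and Il2rg were not listed in the deposited table. Together the 16 summed to 29.8 RPKM against 8.26 RPKM and to 36.7 RPKM against 8.96 RPKM. The 14 genes of the interleukin 6 and interleukin 12 families summed to 34.3 RPKM ipsilaterally and to 32.3 RPKM contralaterally at 21 months and 37.9 RPKM and 32.5 RPKM at 13 months. Il1b alone took 12.4% of the 21 month ipsilateral sum against 0.898% of the contralateral one, and 20.1% against 3.71% at 13 months. Without Il1b the sums were 180 RPKM against 96.0 RPKM at 21 months and 205 RPKM against 97.4 RPKM at 13 months.

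**Figure D1:**
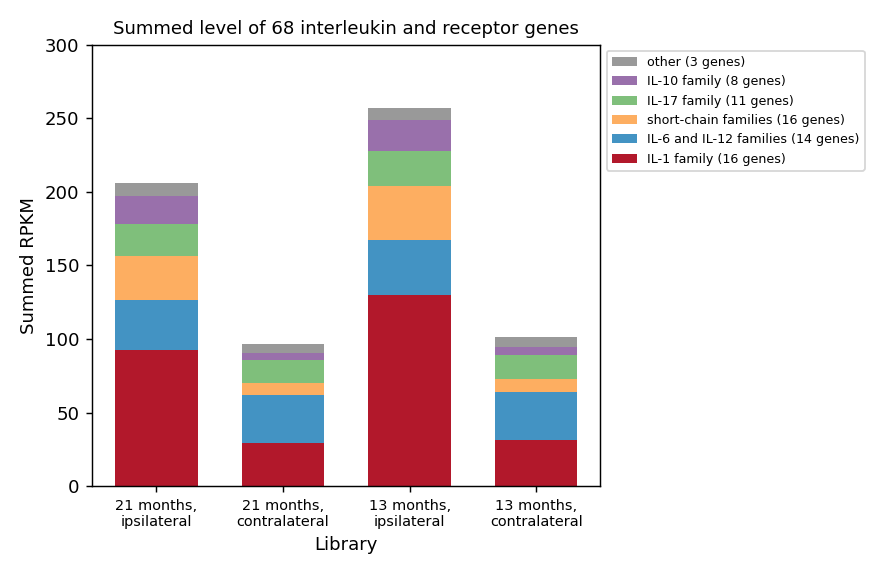
Summed RPKM (y axis) of the 68 interleukin and receptor genes in each of the 4 libraries (x axis), stacked by family. The ipsilateral bars reach 206 RPKM at 21 months and 257 RPKM at 13 months, against 96.8 RPKM and 101 RPKM contralaterally, and the interleukin 1 family is the tallest block of both ipsilateral bars.

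The question put to every member was how its level on the side of the bleed compared with the other side, at each age and over both. Of the 68 genes, 41 had both ipsilateral values above both contralateral values (60.3% of them, against 30.3% of all genes in the table), and 6 had both below (8.82%, against 18.9% of all genes). The 6 lower ones were Il12a, Il17d, Il11ra1, Il17b, Il13ra2 and Il1rapl1. In the other 21 the sides overlapped. A level of 1 RPKM was reached in at least 1 library by 29 members, and 39 stayed below it in every library.

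Changes are log2 ratios of RPKM + 1, ipsilateral over contralateral, a scale that understates the change of low genes. The filter, a 4-library mean of 1 RPKM or more, was passed by 24 members, and 44 were not tested for this reason. Of the 24, 11 had a log2 ratio of at least 1 at 21 months, where 5.61% of the 12160 genes tested did, and 11 had one at 13 months, where 7.19% did. At both ages 9 of the 24 reached it. A ratio of -1 or less was found for 0 of the 24 at either age, against 0.288% of all genes at 21 months and 0.0658% at 13 months. The median ratio of the 24 was 0.82 at 21 months and 0.84 at 13 months, beside medians over all genes of 0.09 and 0.01. Of these 24 members, 6 had a contralateral mean under 1 RPKM and passed the filter through their ipsilateral values (Il1a, Il1rn, Il1r2, Il7r, Il21r and Il15ra), so that counts and medians over the 24 lean towards higher ipsilateral levels. Of the other 18, 6 had a ratio of at least 1 at 21 months and 6 at 13 months, and their median ratio was 0.57 and 0.70.

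Over both ages, limma, a linear model with moderated errors fitted across all genes with age as an additive term, called 16 of the 24 as higher ipsilaterally and 0 as lower at a Benjamini-Hochberg adjusted p of 0.05. The share of all genes called was 13.3% higher and 0.814% lower. Of the 18 tested members with a contralateral mean of at least 1 RPKM, 10 rose, where 11.2% of the genes with such a mean did, and the other 6 calls are those of the members that passed the filter through their ipsilateral values. Without adjustment, 18 members were higher at p under 0.05 in limma and 1, Il12a, was lower. All 16 had both ipsilateral values above both contralateral values, an order that 30.3% of all genes in the table had. The calls were made from these same values, so this order is no separate result. Each gene has 1 residual degree of freedom of its own, which is the difference of the side ratio between the ages. The printed SE is in large part an error shared over all tested genes. The SE was 0.169 for Il1r2, whose side ratios differed by 0.04, and 0.202 for Il7r, whose side ratios differed by -1.0. This fit therefore draws its small p-values largely from the shared error. With no filter on low values it called 0 genes in all, although 26 members were then higher at an unadjusted p under 0.05. When the 21 month or the 13 month contralateral library was left out, with side as the only term, 7 and 9 of the 16 were still called. The filter still used all 4 libraries in these fits, and Il1rn, Il1r2 and Il21r had passed it through their ipsilateral values. Il1b, Il1rn, Il4r, Il1r2, Il10rb, Il10ra and Il21r were called whichever library was left out. The others lost the call at least once, namely Il15ra, Il18, Il18bp, Il33, Il3ra, Il6r and Il7r without either contralateral library, Il17ra and Il1a without the 21 month contralateral one, and Il7r also without the 13 month ipsilateral one. Without a contralateral library their adjusted p in limma ran from 0.051 for Il18 to 0.44 for Il7r, both without the 21 month one, and their fitted changes from 0.58 for Il18bp to 1.36 for Il18.

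**Figure D2:**
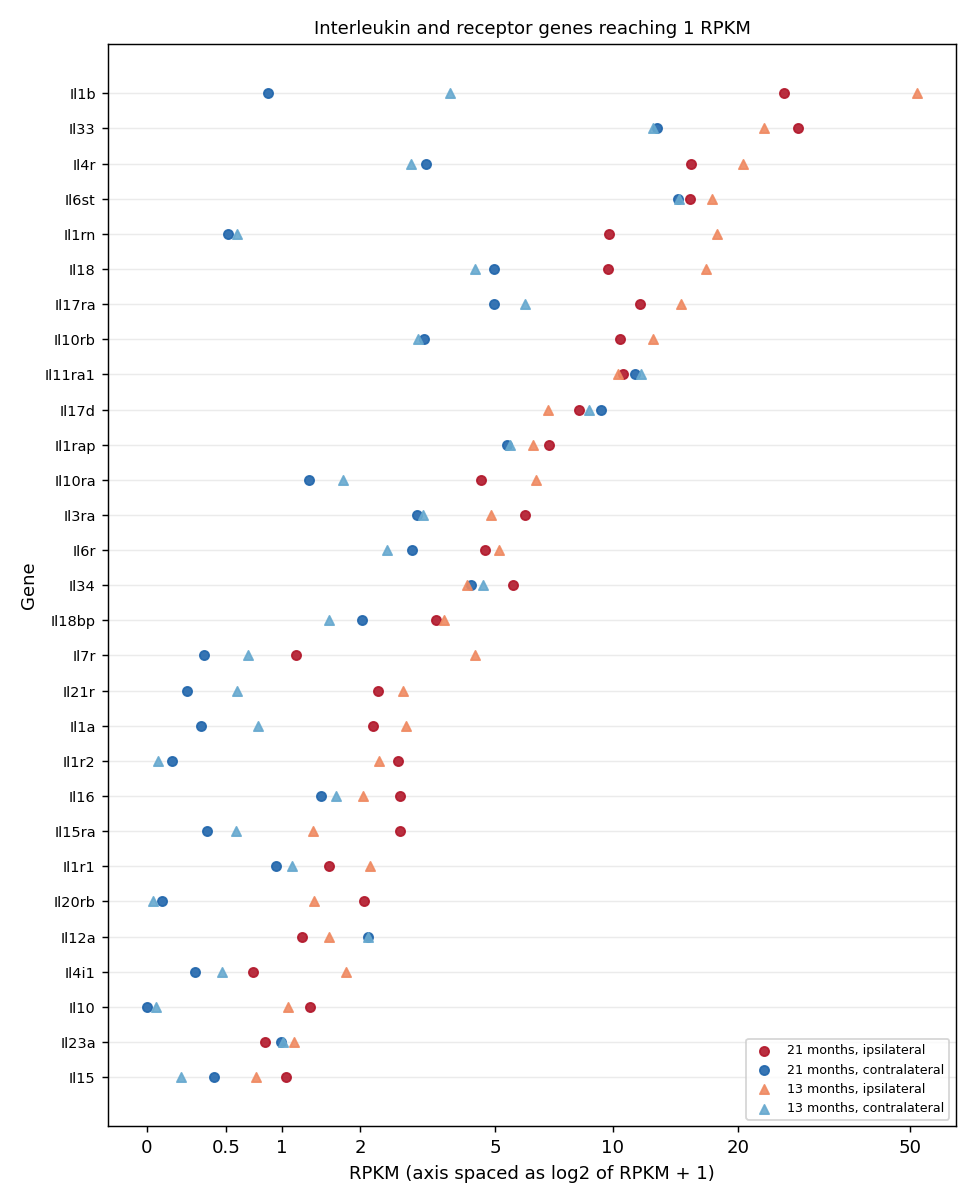
RPKM (x axis, spaced as log2 of RPKM + 1) of the 29 interleukin and receptor genes that reached 1 RPKM, 1 row per gene, ordered by the ipsilateral mean. Circles are 21 months and triangles 13 months, with ipsilateral libraries in red tones and contralateral ones in blue tones. Il1b, Il4r and Il1rn show the widest gaps between the sides, while Il6st, Il11ra1, Il17d and Il34 hold all 4 values close together.

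Among the ligands, Il1b (ENSRNOG00000004649, chromosome 3), which encodes interleukin 1 beta, had the highest level of any member in the 13 month ipsilateral library. It had 25.6 RPKM in the 21 month ipsilateral library against 0.87 RPKM contralaterally, and 51.8 RPKM against 3.75 RPKM at 13 months. The lowest ipsilateral value was therefore well above the highest contralateral value. The log2 ratio was 3.83 at 21 months, the place 12 among 12160 genes, and 3.47 at 13 months, the place 27. The fitted change was 3.65 ± 0.17 (SE, 2 libraries per side, adjusted p = 1.8e-12 in limma). In the same libraries 10 monocyte and macrophage markers summed to 358 RPKM against 40.7 RPKM at 21 months and to 768 RPKM against 67.4 RPKM at 13 months, and the part of these cells in the level of Il1b was not tested.

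Il1a (chromosome 3), which encodes interleukin 1 alpha, the form that stays largely bound to cells and is released on damage, was far less abundant. It had 2.21 RPKM ipsilaterally and 0.32 RPKM contralaterally at 21 months, and 2.79 RPKM and 0.77 RPKM at 13 months. It rose by 1.19 ± 0.17 on the log2 scale (SE, adjusted p = 1.7e-05 in limma). Il1b exceeded Il1a by 11.6 times in the 21 month ipsilateral library and 2.72 times in the contralateral one, and by 18.5 times and 4.87 times at 13 months.

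Il18 (chromosome 8) encodes interleukin 18, which like interleukin 1 beta is cut to its active form by caspase 1. It was at 9.76 RPKM ipsilaterally and 4.98 RPKM contralaterally at 21 months, and at 16.8 RPKM and 4.41 RPKM at 13 months. The contralateral levels were close to each other and the ipsilateral level was higher at 13 months. Its log2 side ratio was 0.85 at 21 months and 1.72 at 13 months, a difference of -0.87 that was not tested, and the fitted change was 1.28 ± 0.19 (SE, adjusted p = 3.5e-05 in limma).

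Il33 (chromosome 1) encodes interleukin 33, a nuclear alarmin released from damaged cells. It was the most abundant member in the 21 month ipsilateral library, at 27.6 RPKM against 12.85 RPKM contralaterally, and had 23.0 RPKM against 12.5 RPKM at 13 months. The contralateral values were nearly equal and both ipsilateral values lay well above them. It rose by 0.94 ± 0.17 on the log2 scale (SE, adjusted p = 0.00031 in limma). Over the same libraries, the summed oligodendrocyte markers were at 2723 RPKM and 2243 RPKM at 21 months and at 2010 RPKM and 2387 RPKM at 13 months, ipsilateral first, and the summed astrocyte markers at 758 and 692 RPKM and at 649 and 714 RPKM. None of these 16 markers was called by limma. Their part in the level of Il33 was not tested. Il36b, a further ligand of the family, was listed at 0.50 RPKM and 0.27 RPKM in the ipsilateral libraries of 21 and 13 months and at 0 in both contralateral ones.

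The ligands that limma called all belonged to the interleukin 1 family. Of the other ligands, Il16 (chromosome 1), a chemoattractant of CD4+ cells, had 2.68 RPKM against 1.45 RPKM at 21 months and 2.04 RPKM against 1.65 RPKM at 13 months, with the ipsilateral libraries higher by a log2 change of 0.39 that did not pass (adjusted p = 0.17 in limma). Il34 (chromosome 19), a ligand of the colony-stimulating factor 1 receptor on microglia, was at 5.58 RPKM ipsilaterally and 4.30 RPKM contralaterally at 21 months, and at 4.21 RPKM and 4.64 RPKM at 13 months. Its sides overlapped. Il17d (chromosome 15), a member of the interleukin 17 family, was lower on the bleeding side, at 8.26 RPKM against 9.35 RPKM and 6.89 RPKM against 8.72 RPKM, a fitted log2 change of -0.23 that did not pass.

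Il12a (chromosome 2), which encodes the p35 subunit shared by interleukin 12 and interleukin 35, had the lowest fitted change of all tested members. It was at 1.22 RPKM ipsilaterally and 2.12 RPKM contralaterally at 21 months, and at 1.56 RPKM and 2.12 RPKM at 13 months. Both contralateral values were the same and above both ipsilateral ones, with a fitted log2 change of -0.39 ± 0.17 (SE, adjusted p = 0.16 in limma). The summed neuronal markers of the same libraries were at 1254 RPKM and 1381 RPKM at 21 months and at 1048 RPKM and 1463 RPKM at 13 months, and the part of neuronal content in the level of Il12a was not tested. Ebi3, which pairs with p35 in interleukin 35 and with the Il27 product in interleukin 27, had 4.49 RPKM against 0.89 RPKM at 21 months and 6.45 RPKM against 0.81 RPKM at 13 months, and it rose by 1.79 ± 0.18 on the log2 scale (SE, adjusted p = 1.0e-07 in limma). Il12b, the p40 subunit of interleukins 12 and 23, was at 0.08 RPKM and 0.07 RPKM ipsilaterally and listed at 0 contralaterally, and Il27 did not exceed 0.18 RPKM in any library. Il23a, the p19 subunit of interleukin 23, stayed between 0.84 RPKM and 1.13 RPKM in all 4 libraries.

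Il6 (chromosome 4), a main product of activated macrophages and astrocytes in acute inflammation, was low in every library. It had 0.34 RPKM ipsilaterally and 0.03 RPKM contralaterally at 21 months, and 0.85 RPKM and 0.24 RPKM at 13 months. Il11, a related ligand, had 0.36 RPKM against 0.13 RPKM and 0.70 RPKM against 0.15 RPKM. For both genes the ipsilateral values lay above both contralateral ones and neither was tested. Il10 (chromosome 13), the inhibitory ligand of macrophages, had 1.32 RPKM in the 21 month ipsilateral library and was listed at 0 contralaterally, and had 1.07 RPKM and 0.05 RPKM at 13 months. Its mean was below 1 RPKM and it was not tested. Il15, which supports natural killer cells and memory T cells, had 1.05 RPKM against 0.41 RPKM and 0.75 RPKM against 0.19 RPKM, and Il7, a survival factor of T cells, had 0.21 RPKM against 0.11 RPKM and 0.59 RPKM against 0.13 RPKM.

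Promoters are printed for the 3 members with the highest fitted change, for Il6 as a ligand whose promoter matched both the NF-kappaB and the C/EBP letters, which that of Il23r did as well, and for Il12a as the member with the lowest fitted change. They are the 250 bases before the gene start in RefSeq on the rat build GRCr8, read 5′ to 3′ on the strand of the gene, which is a newer build than the table can have used. Capitals mark matches to any of 5 motifs searched on both strands, with N for any base. The letters were TTGCNNAA for C/EBP and TTCNNNGAA for STAT. Those for AP-1 were TGANTCA. The TATA box was searched as TATAAA. The NF-kappaB motif was matched as GGGTTTTTCC in Il1rn and as GGGATTTTCC in Il6, its letters 4 and 5 being free. Il1b lies on the minus strand at chr3:137036582-137036831, Il1rn on the plus strand at chr3:27520072-27520321, Il4r on the plus strand at chr1:189545525-189545774, Il6 on the minus strand at chr4:5894576-5894825 and Il12a on the plus strand at chr2:155275484-155275733.
Il1b: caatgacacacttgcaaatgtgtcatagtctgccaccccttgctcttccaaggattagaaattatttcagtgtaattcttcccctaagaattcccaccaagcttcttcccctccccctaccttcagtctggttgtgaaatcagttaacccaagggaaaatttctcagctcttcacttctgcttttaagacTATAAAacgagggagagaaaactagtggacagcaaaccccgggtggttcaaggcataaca
Il1rn: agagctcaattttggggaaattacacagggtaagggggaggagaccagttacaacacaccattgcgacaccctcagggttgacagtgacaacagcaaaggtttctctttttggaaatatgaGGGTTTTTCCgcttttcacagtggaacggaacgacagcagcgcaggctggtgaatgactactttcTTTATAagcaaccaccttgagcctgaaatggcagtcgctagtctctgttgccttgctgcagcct
Il4r: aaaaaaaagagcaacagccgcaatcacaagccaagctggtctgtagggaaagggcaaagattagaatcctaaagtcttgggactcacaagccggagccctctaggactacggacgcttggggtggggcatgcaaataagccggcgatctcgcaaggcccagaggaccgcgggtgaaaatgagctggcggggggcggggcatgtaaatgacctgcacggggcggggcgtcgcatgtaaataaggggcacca
Il6: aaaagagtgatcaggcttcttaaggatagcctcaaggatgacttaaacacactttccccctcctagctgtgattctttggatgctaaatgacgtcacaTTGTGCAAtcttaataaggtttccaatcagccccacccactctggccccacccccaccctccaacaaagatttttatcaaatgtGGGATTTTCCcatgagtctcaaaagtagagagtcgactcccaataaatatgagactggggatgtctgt
Il12a: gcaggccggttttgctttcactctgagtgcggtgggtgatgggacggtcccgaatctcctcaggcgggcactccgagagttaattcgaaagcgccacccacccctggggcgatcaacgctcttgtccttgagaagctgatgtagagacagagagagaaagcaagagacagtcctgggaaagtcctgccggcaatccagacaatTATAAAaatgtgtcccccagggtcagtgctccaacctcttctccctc

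A match is a run of letters and not a shown binding site. Il1rn held an NF-kappaB match from 129 to 120 bases before the start and Il6 from 68 to 59, and these letters occurred in 1.30% of 33469 promoters of the same length. Il6 also held a C/EBP match from 152 to 145 bases before the start, letters found in 9.22% of promoters. A TATA box match lay 60 bases before the start in Il1b, 64 in Il1rn and 47 in Il12a, counted to its farthest base, and 12.9% of promoters held these letters somewhere in the window. The promoter of Il4r held none of the 5 motifs. RefSeq promoters were matched by symbol for 52 of the 68 members (the first entry where 4 of them had several), and 4 of these held the NF-kappaB letters (Il1rn, Il6, Il9 and Il23r), 6 the C/EBP letters, 6 the AP-1 letters, 3 the STAT letters and 10 the TATA box letters. AP-1 letters were in 6.34% and STAT letters in 7.67% of all promoters. Of 14 matched members that rose, 1 held the NF-kappaB, 2 the C/EBP, 2 the AP-1, 0 the STAT and 3 the TATA box letters.

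The antagonists and decoys of interleukin 1 stood beside Il1b among the members that rose most. Il1rn (chromosome 3) encodes the interleukin 1 receptor antagonist, which occupies the receptor without signalling. It had 9.78 RPKM in the 21 month ipsilateral library against 0.52 RPKM contralaterally, and 17.8 RPKM against 0.59 RPKM at 13 months. Contralateral values were both under 1 RPKM and ipsilateral ones more than 18 times higher, at quotients of 18.8 and 30.2. It rose by 3.20 ± 0.19 on the log2 scale (SE, adjusted p = 4.6e-11 in limma).

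Il1r2 (chromosome 9), the decoy receptor that binds interleukin 1 and lacks a signalling domain, was nearly undetected contralaterally. It had 2.64 RPKM against 0.14 RPKM at 21 months and 2.30 RPKM against 0.06 RPKM at 13 months, and it rose by 1.66 ± 0.17 on the log2 scale (SE, adjusted p = 1.5e-07 in limma). Il1r1 (chromosome 9), the signalling receptor, had 1.55 RPKM against 0.94 RPKM and 2.15 RPKM against 1.11 RPKM. Its ipsilateral values were above both contralateral ones, with a fitted log2 change of 0.49 that did not pass (adjusted p = 0.064 in limma) but passed with 0.1 RPKM added in place of 1 (adjusted p = 0.011). The decoy exceeded the signalling receptor ipsilaterally, at 1.70 times its level at 21 months and 1.07 times at 13 months, and was far below it contralaterally, at 0.149 and 0.0541 times. These quotients were not tested.

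Il1rn did not exceed Il1b in any library. It was at 0.382 times the level of Il1b in the 21 month ipsilateral library and at 0.598 times contralaterally, and at 0.345 and 0.157 times at 13 months. Il18bp (chromosome 1), the soluble protein that neutralises interleukin 18, had 3.44 RPKM against 2.02 RPKM at 21 months and 3.61 RPKM against 1.56 RPKM at 13 months, and rose by 0.70 on the log2 scale. It was at 0.352 times the level of Il18 in the 21 month ipsilateral library and 0.406 times contralaterally, and at 0.214 and 0.354 times at 13 months. The other antagonists and decoys stayed below 0.3 RPKM. Among them Il13ra2, a decoy for interleukin 13, was lower ipsilaterally, at 0.08 RPKM against 0.21 RPKM and 0.15 RPKM against 0.29 RPKM.

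Among the receptor chains, Il4r (chromosome 1), which binds interleukin 4 and also serves interleukin 13, had the highest fitted change. It had 15.5 RPKM in the 21 month ipsilateral library against 3.20 RPKM contralaterally, and 20.5 RPKM against 2.90 RPKM at 13 months. Both ipsilateral levels were above 15 RPKM and both contralateral ones near 3 RPKM. It rose by 2.22 ± 0.18 on the log2 scale (SE, adjusted p = 4.1e-09 in limma). Il13ra1, a chain that pairs with it, was listed at 0.07 RPKM in the 13 month ipsilateral library and at 0 in the other 3.

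Both chains of the interleukin 10 receptor rose. Il10rb (chromosome 11), the chain shared with the interleukin 22 receptor, had 10.4 RPKM against 3.17 RPKM at 21 months and 12.5 RPKM against 3.04 RPKM at 13 months, a fitted log2 change of 1.60 ± 0.17 (SE, adjusted p = 3.4e-07 in limma). Il10ra (chromosome 8), the ligand-binding chain, had 4.60 RPKM against 1.30 RPKM and 6.42 RPKM against 1.75 RPKM, a change of 1.36 ± 0.17. The binding chain lay at 0.410 to 0.576 times the level of the shared chain in all 4 libraries. Il20rb (chromosome 8), a chain of the receptors for interleukins 19, 20 and 24, had 2.06 RPKM against 0.08 RPKM at 21 months and 1.37 RPKM against 0.03 RPKM at 13 months. Its mean was under 1 RPKM, so that it was not tested, and its partner chains Il20ra and Il22ra1 did not exceed 0.15 RPKM in any library.

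Il17ra (chromosome 4), the common chain of interleukin 17 receptors, had 11.7 RPKM against 4.97 RPKM at 21 months and 14.65 RPKM against 5.99 RPKM at 13 months, and rose by 1.12 ± 0.17 on the log2 scale (SE, adjusted p = 3.3e-05 in limma). When the 21 month contralateral library was left out its adjusted p was 0.065. The ligands Il17a and Il17f that act through it had at most 0.23 RPKM and 0.04 RPKM, both in the 13 month ipsilateral library. Il17rc, its partner for these ligands, was at 0.62 RPKM against 0.48 RPKM at 21 months and at 0.40 RPKM on both sides at 13 months.

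Il21r, Il7r and Il15ra, receptor chains for cytokines of lymphocytes, were under 1 RPKM in both contralateral libraries and rose in limma. Il21r (chromosome 1), the receptor of interleukin 21, had 2.28 RPKM against 0.23 RPKM at 21 months and 2.73 RPKM against 0.59 RPKM at 13 months, a fitted log2 change of 1.32. Il7r, listed on the scaffold KL567908.1, which encodes the interleukin 7 receptor of T cells, had 1.16 RPKM against 0.34 RPKM and 4.43 RPKM against 0.68 RPKM, a change of 1.19. Il7r was highest in the 13 month ipsilateral library, and without that library the fitted change was 0.53 and did not pass (adjusted p = 0.094 in limma). With age left out of the fit, 14 of the 16 calls held, and those of Il7r (adjusted p = 0.16 in limma) and Il15ra (0.057) did not. Il15ra (chromosome 17), which presents interleukin 15 to neighbouring cells, had its highest level in the other ipsilateral library, with 2.69 RPKM against 0.36 RPKM at 21 months and 1.35 RPKM against 0.58 RPKM at 13 months. It rose by 1.01 over both ages.

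Il2rb, Il2ra, Il18r1 and Il18rap were too low to test, and in these 4 both ipsilateral values were above both contralateral ones. This did not hold for Il9r, the interleukin 9 receptor, at 0.33 RPKM against 0.13 RPKM at 21 months and 0.05 RPKM against 0.10 RPKM at 13 months, nor for Il27ra, the interleukin 27 receptor, at 0.02 RPKM against 0.01 RPKM and 0.03 RPKM against 0.04 RPKM. Il2rb, a chain for interleukins 2 and 15, had 0.25 RPKM against 0.12 RPKM and 0.67 RPKM against 0.19 RPKM, and Il2ra, the high-affinity interleukin 2 chain, had 0.21 RPKM against 0.12 RPKM and 0.55 RPKM against 0.07 RPKM. Of the interleukin 18 receptor chains, Il18r1 had 0.27 RPKM against 0.11 RPKM and 0.81 RPKM against 0.13 RPKM, and Il18rap had 0.73 RPKM against 0.17 RPKM and 0.76 RPKM against 0.12 RPKM. The T cell receptor genes Cd3d, Cd3e and Cd3g were at 0.20 to 0.51 RPKM in the 21 month ipsilateral library, at 0.04 to 0.32 RPKM contralaterally, at 1.11 to 1.60 RPKM in the 13 month ipsilateral library and at 0.05 to 0.32 RPKM contralaterally. The 13 matched T and NK cell markers summed to 32.7 RPKM against 8.24 RPKM at 21 months and to 53.2 RPKM against 8.30 RPKM at 13 months, most of it from Cd4 and Cd8a, which rat macrophages can also express. The part of these cells in the receptor levels was not tested.

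Il3ra (chromosome 12), the interleukin 3 receptor, had 6.01 RPKM against 3.02 RPKM at 21 months and 4.88 RPKM against 3.14 RPKM at 13 months, and rose by 0.65 on the log2 scale (adjusted p = 0.010 in limma). Csf2rb, the signalling chain that the interleukin 3 receptor shares with the receptors of interleukin 5 and GM-CSF, rose too, with 10.6 RPKM against 1.11 RPKM and 10.8 RPKM against 0.94 RPKM, a fitted log2 change of 2.53. Il5ra stayed at or below 0.02 RPKM in every library.

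In the gp130 system the binding chain Il6r passed the test. Il6st (chromosome 2), which encodes gp130, was the most abundant member contralaterally and had 15.4 RPKM against 14.4 RPKM at 21 months and 17.3 RPKM against 14.5 RPKM at 13 months, a fitted log2 change of 0.16 that did not pass (adjusted p = 0.63 in limma). Il6r (chromosome 2), which binds interleukin 6, had 4.69 RPKM against 2.92 RPKM and 5.14 RPKM against 2.45 RPKM, and rose by 0.68 (adjusted p = 0.0071 in limma). The difference between these changes was not tested. Il11ra1 (chromosome 5), the interleukin 11 receptor, had 10.6 RPKM against 11.3 RPKM and 10.3 RPKM against 11.7 RPKM, a log2 change of -0.13 that did not pass. Osmr, the oncostatin M receptor that pairs with gp130, rose by 0.97, with 1.49 RPKM against 0.54 RPKM and 2.56 RPKM against 0.49 RPKM.

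Other receptor chains of the interleukin 1 family did not pass or were too low. Il1rap (chromosome 11), the accessory chain that interleukins 1, 33 and 36 all need, had 6.94 RPKM against 5.40 RPKM at 21 months and 6.29 RPKM against 5.48 RPKM at 13 months, a log2 change of 0.24 (adjusted p = 0.44 in limma). Il1rl1, the interleukin 33 receptor, had 0.59 RPKM against 0.29 RPKM and 0.51 RPKM against 0.18 RPKM, so that Il33 lay 44.3 to 69.6 times above it in the 4 libraries. Il1rapl1, a synaptic relative in neurons, was lower ipsilaterally, with 0.72 RPKM against 0.81 RPKM and 0.56 RPKM against 0.94 RPKM. The enzyme gene Il4i1, which encodes a secreted amino acid oxidase of myeloid cells, had 0.73 RPKM against 0.28 RPKM and 1.79 RPKM against 0.47 RPKM.

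**Figure D3:**
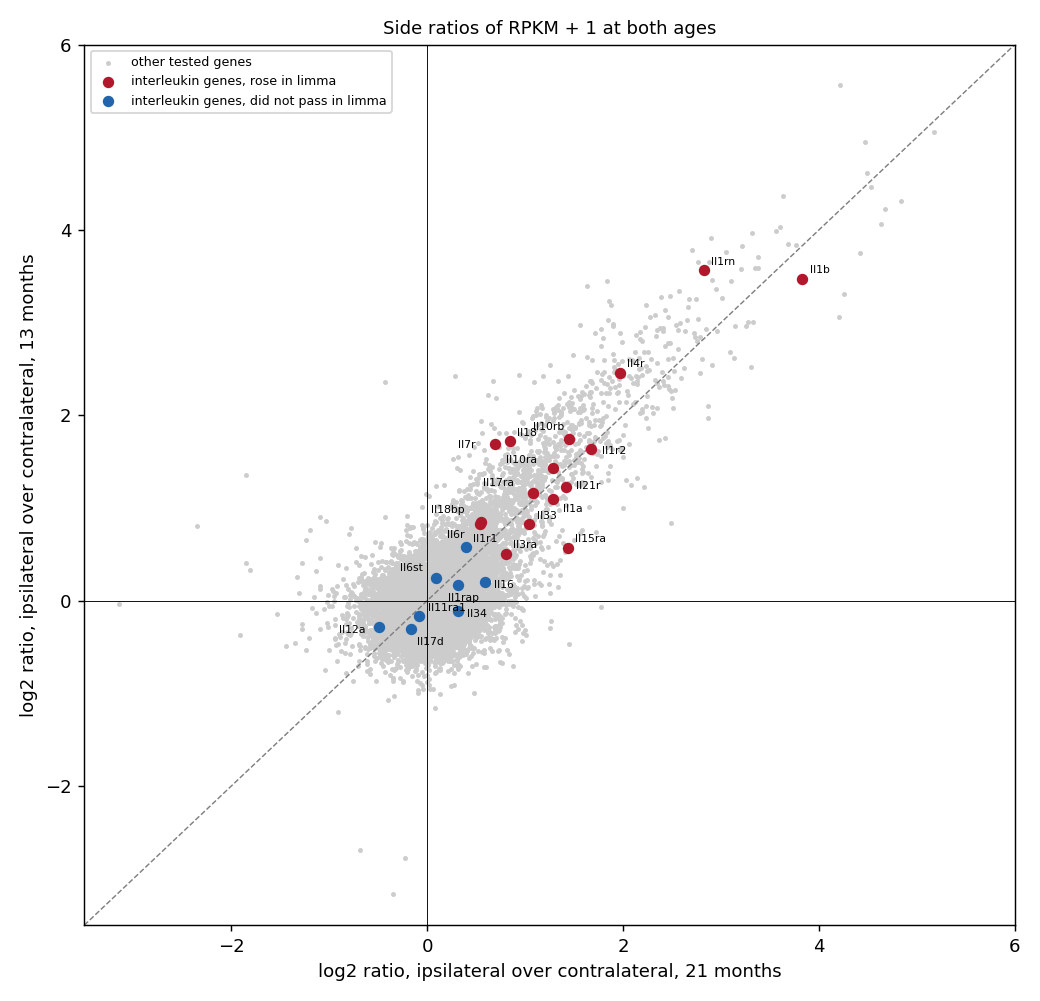
Log2 ratio of RPKM + 1, ipsilateral over contralateral, at 21 months (x axis) and 13 months (y axis) for the 24 tested interleukin and receptor genes over all 12160 tested genes in grey. The 16 members that rose in limma are red and the 8 that did not pass are blue, the dashed line marks equal ratios, and Il7r (0.69 and 1.69) and Il15ra (1.44 and 0.57) lie farthest from it on opposite sides.

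Of the 39 members under 1 RPKM everywhere, 11 had a highest value of at least 0.5 RPKM, 15 lay between 0.1 and 0.5 RPKM, and 13 did not exceed 0.1 RPKM. The highest was Il1rapl1 at 0.94 RPKM in the 13 month contralateral library, followed by Il6 at 0.85 RPKM and Il18r1 at 0.81 RPKM in the 13 month ipsilateral one. In 17 of the 39 both ipsilateral values were above both contralateral ones, where 18.8% of the 5189 genes under 1 RPKM everywhere had this order, and in 3 both were below, against 12.1% of those genes. The 13 lowest were the T cell ligands Il2, Il9, Il21 and Il22, the epithelial ligand Il17c, and Il17f, Il12b, Il36rn, Il5ra, Il13ra1, Il22ra1, Il27ra and Il31ra. Over the whole set, 15 members were listed at 0 in at least 1 library and 0 members in all 4. The deposited table is one of expressed genes, so that genes without reads in any library may have been left out. Absence from it does not show that a gene had no reads. The microglia markers P2ry12 and Gpr34 and the endothelial markers Cldn5 and Pecam1 were not matched in it either, while other markers of these cells were.

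**Figure D4:**
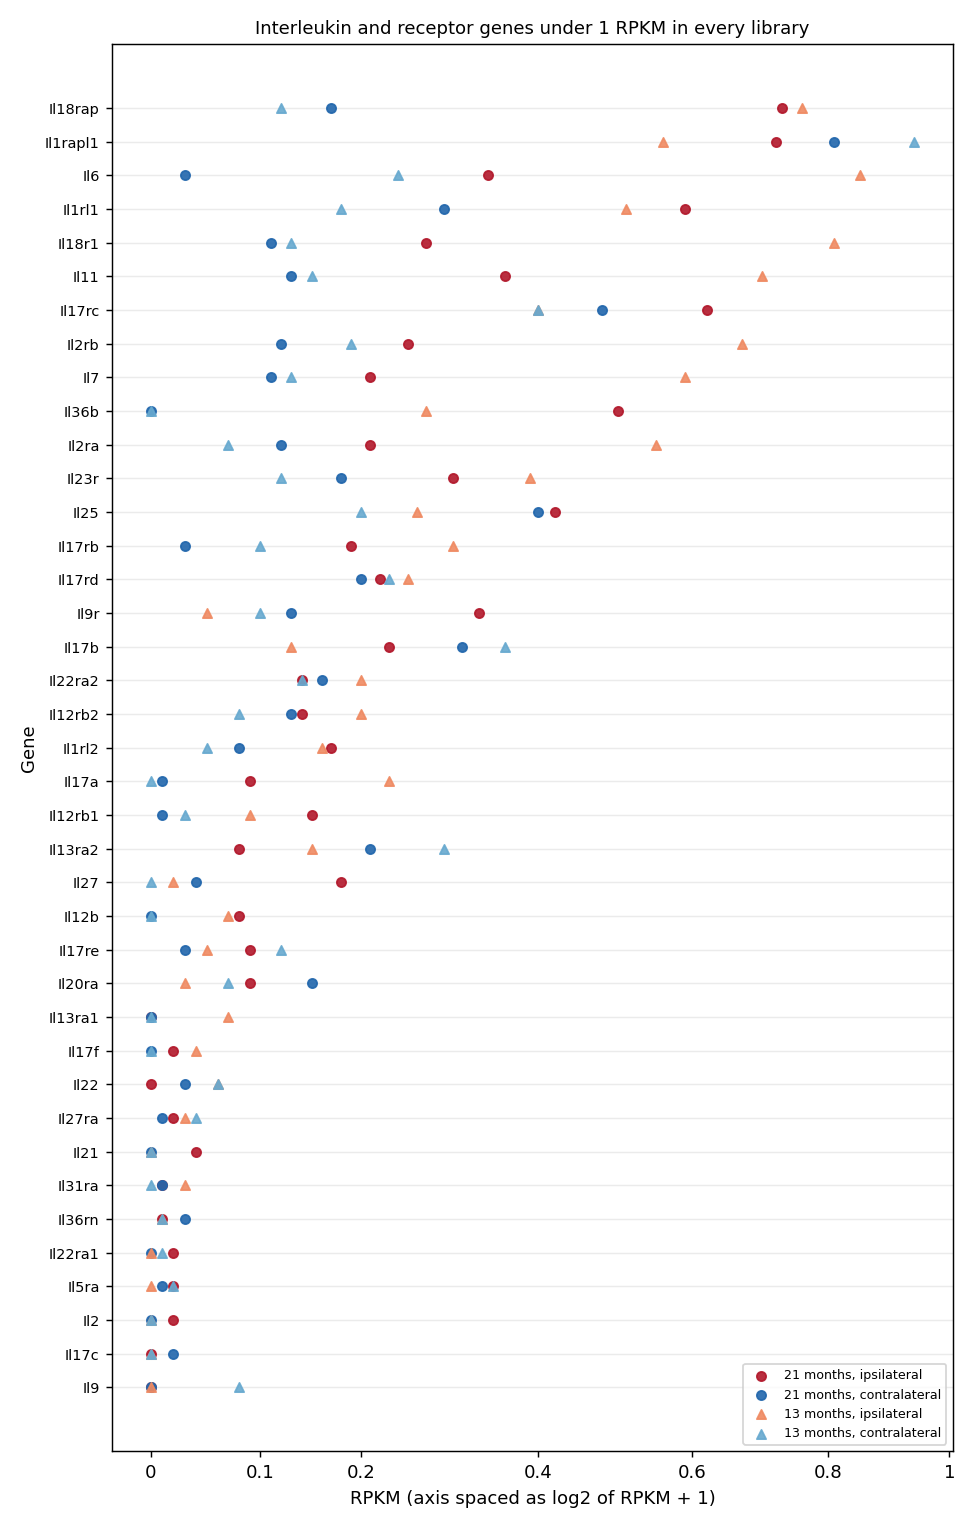
RPKM (x axis, spaced as log2 of RPKM + 1) of the 39 interleukin and receptor genes that stayed under 1 RPKM in every library, 1 row per gene, with symbols and colours for age and side as in the legend. Il18rap, Il6, Il18r1, Il11, Il2rb and Il7 have both ipsilateral points to the right of both contralateral ones, and the lowest rows lie at or next to 0.

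The ages were compared on each side to ask how the interleukin genes of old rats differed from those of adult rats. In the ipsilateral libraries the summed level was 206 RPKM at 21 months and 257 RPKM at 13 months, and 180 RPKM and 205 RPKM without Il1b. Of the 24 tested members, Il7r was the only one lower by a log2 ratio of at least 1 (-1.33), where 0.658% of all genes were, and 0 were higher by as much, against 0.321% of all genes. Il1b lay just short of that size at -0.99, with 25.6 RPKM at 21 months and 51.8 RPKM at 13 months. Il1rn (-0.81), Il18 (-0.73) and Il10ra (-0.41) were also lower at 21 months, while Il15ra (0.65), Il34 (0.34) and Il33 (0.25) were higher. The median over the 24 was -0.17, beside 0.03 over all genes. Of the 16 members that rose on the bleeding side, 12 had a lower ipsilateral level at 21 months than at 13 months, as did 72.1% of all 1618 genes that rose, so the count is near that share. The monocyte and macrophage markers of these ipsilateral libraries summed to 358 RPKM at 21 months and 768 RPKM at 13 months. Their median log2 ratio was -0.50 over 9 tested markers. Of 13 matched T and NK cell markers 4 were tested, with a median of -0.97. Cd8a, Cd2 and Lck of these passed the filter through their ipsilateral values, and Cd4 was higher at 21 months (0.37). Medians were -0.36 for neutrophil, -0.18 for endothelial, 0.06 for microglia, 0.13 for astrocyte, 0.15 for neuronal and 0.44 for oligodendrocyte markers. The part of these cells in the age differences was not tested.

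In the contralateral libraries the sums of both ages were close, at 96.8 RPKM at 21 months and 101 RPKM at 13 months. Il1b was the 1 member past the size threshold, at 0.87 RPKM at 21 months and 3.75 RPKM at 13 months (-1.34), where 0.132% of all genes were lower by as much. A higher level of that size was seen for 0 members, against 0.206% of all genes. Il1a (-0.42), Il21r (-0.37) and Il7r (-0.33) were next lowest, and Il15, below the filter, was at 0.41 RPKM at 21 months and 0.19 RPKM at 13 months. The median over the 24 was -0.04, beside -0.03 over all genes. Each age comparison rests on 1 library per age and has no test, and whether the 2 sides were taken from the same animals is not stated.

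The difference of the side ratio between the ages, 21 minus 13 months, was lowest for Il7r (-1.0), Il18 (-0.87) and Il1rn (-0.74) and highest for Il15ra (0.87), Il34 (0.43) and Il16 (0.39). Among the 16 members that rose, the side ratio was larger at 13 months for 9 and larger at 21 months for 7. With 1 library per group these differences could not be tested.

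Markers of other cell types were measured in the same libraries. Some, such as Msr1, Fabp4, Fcnb, Mmp9 and Cd8a, passed the filter through their ipsilateral values, so that counts of tested markers lean towards higher ipsilateral levels. Of all genes tested, 13.3% rose in limma. Of 10 matched monocyte and macrophage markers 9 were tested and 7 rose in limma, and Lyz2, a lysozyme gene of these cells, held most of the sums given beside Il1b. Of 11 matched neutrophil markers 5 were tested and all 5 rose. The list summed to 45.2 RPKM against 9.99 RPKM and to 72.1 RPKM against 5.94 RPKM, most of it from S100a8 and S100a9. Of the untested ones, Cxcr2 and Mmp8 were higher ipsilaterally at both ages. Ngp was lower, at 0.06 RPKM against 0.21 RPKM and 0.06 RPKM against 0.17 RPKM. Camp had 0.17 RPKM against 0.31 RPKM at 21 months and 0.42 RPKM against 0.08 RPKM at 13 months. The granule genes Mpo and Ltf stayed at or below 0.04 RPKM and 0.01 RPKM. Microglia markers rose in 3 of 6 tested and summed to 150 RPKM against 70.5 RPKM and to 131 RPKM against 72.9 RPKM. Of 7 matched B and plasma cell markers Blnk alone was tested and rose, and it made up nearly all of a sum of 31.0 RPKM against 9.36 RPKM and 31.75 RPKM against 10.4 RPKM. Of 8 mast cell markers Kit alone was tested and did not pass. Endothelial markers rose in 0 of 6 tested, with all 6 at an adjusted p of at least 0.17 in limma, and summed to 24.95 RPKM against 25.6 RPKM and to 28.8 RPKM against 22.9 RPKM. The part of cell content in the interleukin changes was not tested.

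The machinery that makes and reads these interleukins was described from lists of other genes. Some of them, such as Nlrp3, Nlrc4, Bcl3, Ebi3 and Osmr, passed the filter through their ipsilateral values. Counts and medians over the lists therefore lean towards higher ipsilateral levels. Of all genes tested, 13.3% rose in limma. Of 9 tested genes of the inflammasome and of interleukin processing, 8 rose and Nek7 did not pass, with a median fitted log2 change of 1.33 beside 0.04 over all genes. Casp1, the protease that cuts interleukins 1 beta and 18, had 8.34 RPKM against 2.72 RPKM at 21 months and 12.6 RPKM against 2.25 RPKM at 13 months, and rose by 1.70 ± 0.19 (SE, adjusted p = 4.9e-07 in limma). Nlrp3, the inflammasome sensor, rose by 1.33, with 2.50 RPKM against 0.58 RPKM and 4.74 RPKM against 1.0 RPKM, and Pycard, the adaptor between them, rose by 2.01.

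Downstream of the interleukin 1 and Toll-like receptors, 5 of 12 tested adaptors and kinases rose and 7 did not pass, at a median of 0.39. Myd88, the adaptor of these receptors, had 7.69 RPKM against 2.11 RPKM and 7.17 RPKM against 2.16 RPKM, and rose by 1.43. Irak3, the member of the receptor-associated kinases that restrains signalling, rose by 1.84, and Irak2 and Irak4 by 0.84 and 0.79, whereas Irak1 was at 34.5 RPKM against 31.25 RPKM and 33.5 RPKM against 33.3 RPKM, a change of 0.07. Of the 11 NF-kappaB subunits and inhibitors, 9 rose and Rela and Nfkbib did not pass, at a median of 1.41. The share that rose over all tested genes was 13.3%. Nfkbiz, an inducible regulator needed for Il6 expression in mouse macrophages, rose by 1.78, Nfkb2 by 1.71 and Bcl3 by 1.66.

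Of the JAK kinases and STAT factors tested, 5 of 9 rose, at a median of 0.70. Stat6, which carries the signal of interleukin 4 receptors, rose by 1.15, with 10.4 RPKM against 5.20 RPKM and 14.4 RPKM against 4.74 RPKM, and Stat3, which carries that of gp130 and the interleukin 10 receptor, rose by 0.90. Jak1, the kinase bound to most of these receptors, was at 38.5 RPKM against 34.8 RPKM and 45.9 RPKM against 36.3 RPKM, and did not pass. Among 13 tested signalling inhibitors 3 rose and 10 did not pass, at a median of 0.18, where 13.3% of all tested genes rose. Socs3, the inhibitor of gp130 signalling that STAT3 induces, had the largest fitted change of these, with 17.6 RPKM against 1.11 RPKM and 20.9 RPKM against 1.81 RPKM, a fitted log2 change of 3.05 ± 0.17 (SE, adjusted p = 2.0e-11 in limma). Ptpn6, a phosphatase of blood cells, rose by 2.39 and Ptpn2 by 0.66, while Socs5 had a change of -0.30 that did not pass.

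Of 6 tested gp130 cytokines and receptors without an interleukin name, Ebi3, Osmr and Cntf rose and 3 did not pass, at a median of 0.36. Over all tested genes 13.3% rose. Cntf, a survival factor made by astrocytes, had 4.47 RPKM against 2.16 RPKM and 3.14 RPKM against 1.85 RPKM. Of 9 tested colony-stimulating factors and shared receptor chains 6 rose, at a median of 1.0, led by the GM-CSF receptor chains Csf2ra (2.73) and Csf2rb (2.53) and the G-CSF receptor Csf3r (2.14). The cytokine genes Csf2 and Csf3 that these receptors bind had at most 0.20 RPKM and 1.20 RPKM, in the 13 month ipsilateral library.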

How the data were processed

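Polyadenylated RNA of 4 rat brain libraries was measured, 1 per age and side. The authors deposited RPKM values rounded to 2 decimals. Per the submitters' processing notes the tools were cutadapt, TopHat2 and edgeR (versions and roles not given) and the build was GRCh38, which is human, although the table carries rat Ensembl identifiers. The build, counting step and gene lengths behind the values are therefore not settled, and chromosomes are those of the table. Depth is unknown.

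The analysis took log2(RPKM + 1) of 12160 of 17853 genes, those averaging 1 RPKM or more. Single libraries were compared as log2 ratios with a threshold of 1 and no test. limma (3.58.1, R 4.3.3) modelled side plus age over 2 libraries per side, with eBayes, two-sided, Benjamini-Hochberg adjusted over all 12160 genes. A run on simulated data gave every gene the same noise, so it cannot show the error rate in these data. p-values rest on an error shared in large part over all genes of these 4 libraries. They do not measure the spread between animals, since the RNA was pooled. Roles were assigned by hand. By rule, members reaching 1 RPKM were given with their values and the others by counts, ranges and the highest 3; list genes were named if called, up to the 3 highest and lowest fitted changes, or if acting directly on a described interleukin. Other low members, list genes and the printed promoters (RefSeq, GRCr8) were picked for their role or fitted change after values were seen. Members and lists were chosen with earlier results of these data known. Alternatives were a pseudocount of 0.1 RPKM, no filter, a 5 RPKM filter, median-ratio scaling, no age term, and leaving out each library.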

Additional observations from a re-analysis of the deposited data

Results flagged for a closer look

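Il34 was the 1 tested member whose side ratio had opposite signs at the ages. It was higher ipsilaterally at 21 months (5.58 RPKM against 4.30 RPKM, a log2 ratio of 0.31) and lower at 13 months (4.21 RPKM against 4.64 RPKM, -0.11), a difference of 0.43 on the log2 scale. The difference was not tested, since each group had 1 library.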

How the results depend on the processing

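Depth is unknown and single libraries carry no error, so low members and age contrasts are the least certain. With a filter of 5 RPKM, which leaves fewer genes, 6 members were higher by at least 1 at each age against 11 with the filter of 1 RPKM, and 7 members rose in limma against 16, with 841 genes rising and 40 falling in all against 1618 and 99. With no filter limma called 0 members and 0 genes in either direction, with a lowest adjusted p of 0.087. With median-ratio scaling 9 members were higher by at least 1 at 21 months and 11 at 13 months, against 11 and 11. Without that scaling Il33 (1.05) and Il17ra (1.08) lay just above this size at 21 months. The genes that fell were 248 with median-ratio scaling and 27 without the age term. Leaving out each library in turn, with side as the only term, gave 7 to 17 members that rose and 0 to 1 that fell (Il12a, without the 13 month ipsilateral library), and 625 to 2107 genes that rose and 2 to 882 that fell. Without the 13 month contralateral library 9 members and 632 genes rose, and without the 13 month ipsilateral one 495 genes fell, and the cause was not tested. Leaving out the 21 month contralateral library lost Il15ra, Il17ra, Il18, Il18bp, Il1a, Il33, Il3ra, Il6r and Il7r, and leaving out the 13 month contralateral one lost the same genes except Il17ra and Il1a. Leaving out a library leaves a side with 1 library, assumed to vary like the others. Members lower by at least 1 with age numbered 2 on the ipsilateral side with 0.1 RPKM added and 2 with median-ratio scaling, 0 with the 5 RPKM filter, and 3 on the contralateral side with 0.1 RPKM added, against 1 and 1. For all genes, 0.1 RPKM added gave 59 lower at 21 months and 34 at 13 months, against 35 and 8, and the 5 RPKM filter gave 413 and 494 higher, against 682 and 874. The sign of a fitted change turned for Il34 alone, at -0.070 without the 21 month ipsilateral library. Under 0.1 RPKM added, the 5 RPKM mean and median-ratio scaling every one of the 16 members still in the fit was called. The age term already compared the sides within each age. No paired analysis was possible because, beyond that term, the labels give no replicate numbers and tie no library to an animal.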
